A study of Mus musculus with 16 samples.

Results

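Acer2 and the enzymes that interconvert ceramide, sphingosine and sphingosine 1-phosphate were followed across the ribosome pulldown and input libraries of mouse hypothalamus, with and without deletion of the leptin receptor gene Lepr in Pnoc-expressing cells. The 10 genes, Acer2, Acer3, Asah1, Asah2, Sphk1, Sphk2, Sgpp1, Sgpl1, Cers2 and Cers6, were found by symbol among the 45706 genes of the count table, and each was measured in all 16 libraries. Acer2 was picked for its difference between genotypes, so its levels by genotype are described with no test, and the other 9 were listed for their place in the pathway. All groups carried L10a-GFP, a green fluorescent fusion of a large-subunit ribosomal protein that is expressed after Cre recombination from a ROSA-STOP construct, on a C57Bl/6N background with chow diet. The Lepr-deletion group carried a deletion of Lepr in Pnoc-expressing cells, and the control group carried the floxed Lepr allele per its genotype label, although its sample titles read WT. Cre recombinase was expressed under Pnoc, which encodes the nociceptin precursor, so any cell with Pnoc expression up to sampling could carry the deletion and the tagged ribosomes. Each sample pooled the hypothalami of 4 random-fed animals taken in the morning, whose age the labels give as 12 weeks in one protocol and 10 to 12 weeks in another. Pools 5 to 8 were Lepr-deletion and pools 1 to 4 were control, and each pool gave a pulldown library of GFP-precipitated ribosomes and an input library of total lysate RNA. The library totals were 64435888 to 78623579 estimated counts.

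Ceramide is the core lipid of the sphingolipids, and ceramidases cut it into sphingosine and a fatty acid, each at its own site and pH. Sphingosine kinases then make sphingosine 1-phosphate, a lipid signal, which phosphatases return to sphingosine and a lyase breaks down for good, while ceramide synthases re-attach a fatty acid to sphingosine. In brain these lipids are also building blocks of myelin, and ceramide has been studied in the hypothalamus as a lipid linked to energy balance.

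Acer2, which encodes the alkaline ceramidase of the Golgi, lies on chromosome 4 of GRCm38 from 86874348 to 86932524 (ENSMUSG00000038007). Acer3, the alkaline ceramidase of the endoplasmic reticulum and Golgi, lies on chromosome 7 from 98213808 to 98321208 (ENSMUSG00000030760). The 300 bases around the annotated transcription starts of both, 250 before and 50 after each start, are shown because Acer2 is the gene with the genotype difference and Acer3 is its expressed alkaline relative. The sequences are from RefSeq (GRCm38.p6), 5′ to 3′ on the gene's strand, with GC boxes (GGGCGG on either strand) in capitals.
Acer2 chr4:86874164-86874463, plus strand: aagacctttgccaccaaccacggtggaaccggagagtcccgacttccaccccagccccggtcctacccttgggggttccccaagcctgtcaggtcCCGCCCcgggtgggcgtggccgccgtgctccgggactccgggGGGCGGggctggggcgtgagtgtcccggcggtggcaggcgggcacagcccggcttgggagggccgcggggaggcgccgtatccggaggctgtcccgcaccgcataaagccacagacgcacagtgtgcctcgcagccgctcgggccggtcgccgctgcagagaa
Acer3 chr7:98309493-98309792, minus strand: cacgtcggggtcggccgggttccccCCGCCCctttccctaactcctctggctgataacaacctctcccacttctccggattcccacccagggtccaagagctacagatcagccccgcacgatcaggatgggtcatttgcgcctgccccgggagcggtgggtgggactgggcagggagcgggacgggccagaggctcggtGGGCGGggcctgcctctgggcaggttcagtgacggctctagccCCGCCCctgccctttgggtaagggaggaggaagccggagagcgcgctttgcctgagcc
Acer3 chr7:98321159-98321458, minus strand: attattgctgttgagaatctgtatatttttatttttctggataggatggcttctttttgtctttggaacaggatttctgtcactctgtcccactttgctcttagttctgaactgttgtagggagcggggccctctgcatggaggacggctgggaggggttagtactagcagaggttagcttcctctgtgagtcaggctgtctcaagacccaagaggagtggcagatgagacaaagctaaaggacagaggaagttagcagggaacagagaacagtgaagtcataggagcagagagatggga

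The Acer2 window was 73% G and C with 31 CpG sites and 2 GC boxes. The Acer3 window inside the gene's annotated span was 68% G and C with 20 CpG sites and 3 GC boxes, and the outer Acer3 window was 47% G and C with 2 CpG sites and no GC box. None of the 3 windows held the letters TTCNNNGAA, the pattern bound by STAT factors, or TATAAA, searched on both strands. Over 32851 promoter windows of the same length, 35.7% held GGGCGG, 8.30% held TTCNNNGAA and 13.6% held TATAAA, and the median G and C content was 52.7%. Windows were found for 9 of the 10 genes.

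Lepr itself was read before the genotype comparisons. In CPM, the depth-scaled count used here, with library sizes set by the trimmed mean of M values (TMM), Lepr stood at 2.42 to 2.82 in Lepr-deletion pulldown and 1.42 to 1.86 in control pulldown. The Lepr total was thus higher where the label gives a deletion (log2 0.71, edgeR adjusted p = 0.0386). Such totals cover the whole gene and do not show which part was deleted, so they check nothing about the labels. Pnoc had 6.96 to 9.29 CPM in Lepr-deletion pulldown, against 2.22 to 2.92 CPM in Lepr-deletion input, and 7.29 to 10.1 CPM in control pulldown, against 2.55 to 2.97 CPM in control input. It was higher in pulldown than in input by log2 1.68 in Lepr-deletion pools (SE 0.12, edgeR adjusted p = 6.5e-08) and by 1.68 in control pools (SE 0.12, edgeR adjusted p = 2.04e-07). Pools 5 and 1 stood apart among the genes studied. Pool 5 was the highest Lepr-deletion pulldown library and pool 1 the lowest control pulldown library for Acer3, Asah1, Asah2, Sgpp1, Cers2 and Cers6. The same held for Pnoc. Results are therefore also given without both pools.

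Acer2 was lower in the libraries with Lepr deleted, in pulldown and in input. In Lepr-deletion pulldown Acer2 had 2.58, 2.16, 2.07 and 1.96 CPM in pools 5 to 8, and in control pulldown it had 6.86, 7.20, 6.22 and 5.98 CPM in pools 1 to 4. Every Lepr-deletion pulldown library lay below every control pulldown library, with 149 to 218 counts in the Lepr-deletion libraries and 541 to 674 in the control libraries. The means were 2.19 ± 0.269 CPM in Lepr-deletion pulldown and 6.57 ± 0.564 CPM in control pulldown (SD, n = 4 each), a log2 difference of -1.57 (SE 0.11), or a 2.97-fold lower level. In Lepr-deletion input Acer2 had 2.34, 2.45, 2.76 and 2.38 CPM, and in control input it had 4.59, 4.70, 5.09 and 4.29 CPM. The input groups did not overlap either, with means of 2.48 ± 0.189 CPM in Lepr-deletion input and 4.67 ± 0.331 CPM in control input (SD, n = 4 each) and a log2 difference of -0.91 (SE 0.12). These are the values Acer2 was chosen on, and they carry no test here. In such tissue, fewer cells of a type and less RNA per cell cannot be told apart.

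**Figure D1:**
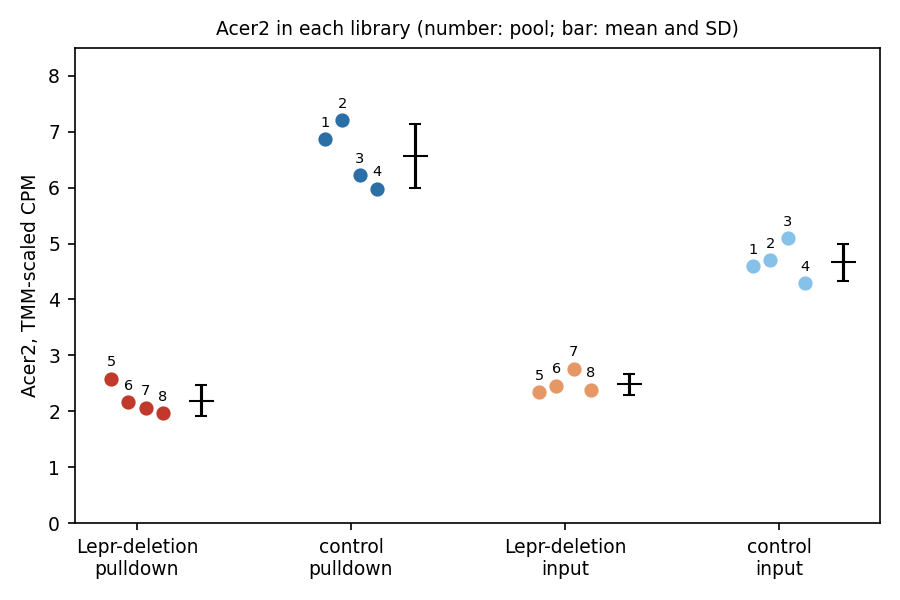
Acer2 in each of the 16 libraries, in TMM-scaled CPM on the vertical axis, with pool numbers at the points and the mean and SD (n = 4) as a bar beside each group. The Lepr-deletion pulldown libraries sit between 1.96 and 2.58 CPM, below the control pulldown libraries at 5.98 to 7.20 CPM, and the Lepr-deletion input libraries at 2.34 to 2.76 CPM lie below the control input libraries at 4.29 to 5.09 CPM.

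The plot of Acer2 by library shows a wider gap between genotypes in pulldown than in input. The difference in pulldown over input between genotypes was log2 -0.67 (SE 0.15), as a description, since it holds the same genotype contrast. Without pools 1 and 5 the Acer2 difference was -1.64 (SE 0.12) in pulldown and -0.89 (SE 0.15) in input, and leaving out any single library gave values between -1.67 and -1.52 in pulldown and between -0.96 and -0.86 in input. The authors' deposited table gives a log2 difference of -1.57 for Acer2 in pulldown and -0.91 in input. Per transcript length, in TPM (the length-scaled share of a library), Acer2 had 3.46, 2.76, 3.31 and 2.73 in Lepr-deletion pulldown and 8.37, 9.44, 9.22 and 8.39 in control pulldown. It had 1.66, 1.71, 1.58 and 1.72 TPM in Lepr-deletion input and 3.11, 2.77, 4.32 and 1.86 TPM in control input. The control input libraries spread more in TPM than in CPM. The length that links the counts of Acer2 to its TPM, relative to the library's median gene, ran from 0.560 to 1.1 in control input, against 0.700 to 0.886 in Lepr-deletion input.

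Pulldown was set against input within each genotype. The libraries are those Acer2 was picked on, so its values are given here as a description. Its edgeR calls enter the counts of pulldown over input further below, where they are not independent of how it was picked. Its log2 pulldown over input was -0.19 in Lepr-deletion pools (SE 0.14), where the libraries overlapped, and 0.47 in control pools (SE 0.09), where every pulldown library lay above every input library. Over the alternatives the value in control pools stayed between 0.42 and 1.58. The sign in Lepr-deletion pools depended on the scaling: it was 0.27 with library totals and 0.60 on log2(TPM + 1).

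Summed marker genes of neurons and of 5 other cell types, in 6 lists, were read beside Acer2. Between genotypes the sums overlapped in 10 of the 12 cases. The pan-neuronal sum was 11672 to 12488 CPM in Lepr-deletion pulldown and 12494 to 13957 CPM in control pulldown. Most of it was Snap25, with means of 9132 CPM in Lepr-deletion pulldown and 9964 CPM in control pulldown. In pulldown 0 of the 8 neuronal markers were called, where 0.641% of all genes were. Of the 8 differences 5 were negative, with a median of -0.03, and Eno2 was at 0.12. The astrocyte sum was 2837 to 3071 CPM in Lepr-deletion input and 3131 to 3512 CPM in control input. Slc1a2 alone averaged 1667 CPM in Lepr-deletion input and 1923 CPM in control input. In input 1 of 8 astrocyte markers was called, where 0.231% of all genes were. It was the astrocyte gap junction gene Gja1 (log2 -0.33, edgeR adjusted p = 0.00649). The 8 did not share a direction in input, with 5 negative, a median of -0.04 and Gfap at 0.25. In pulldown 0 of the 8 were negative, and Gja1 was at 0.59. No marker of these 2 lists was at 0. The part of these cells in the Acer2 values was not tested.

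Acer2 and Lepr are on the same chromosome, 14.8 Mb apart. Within 1 Mb of Acer2 the annotation lists 9 other protein-coding genes, of which 8 were tested. None passed the test between genotypes in pulldown, where 0.641% of all genes did, or in input, where 0.231% did. At an unadjusted p under 0.05, 2 of the 8 passed in pulldown, where 19.8% of all genes did, and 3 in input, where 14.0% did. Their log2 differences ran from -0.22 to 0.39 in pulldown and from -0.34 to 0.28 in input. The nearest gene on the side of lower coordinates was Rps6, a ribosomal protein gene, with -0.08 in pulldown (SE 0.06) and -0.01 in input (SE 0.05). Beyond it, Dennd4c had a log2 difference of -0.17 in pulldown (SE 0.11) and -0.32 in input (SE 0.06, edgeR adjusted p = 0.0774). Slc24a2, the nearest on the other side, had -0.22 in pulldown (SE 0.08) and -0.34 in input (SE 0.08, edgeR adjusted p = 0.128). DESeq2, which called 6.35% of all genes in pulldown and 2.18% in input, called Dennd4c (adjusted p = 0.00228) and Slc24a2 (adjusted p = 0.00675) lower in input and Plin2, a lipid droplet coat protein gene, higher in pulldown (log2 0.39, DESeq2 adjusted p = 0.033). Over the rest of chromosome 4, with Acer2 and Lepr left out, 16 of 954 tested genes passed in pulldown, which is 1.68%, against 80 of 14221 on the other chromosomes, which is 0.563%. In input 10 of 970 passed on chromosome 4, which is 1.03%, against 20 of 14633 elsewhere, which is 0.137%. Of these chromosome 4 calls, 6 in pulldown and 4 in input lay at 41 to 43 Mb.

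**Figure D2:**
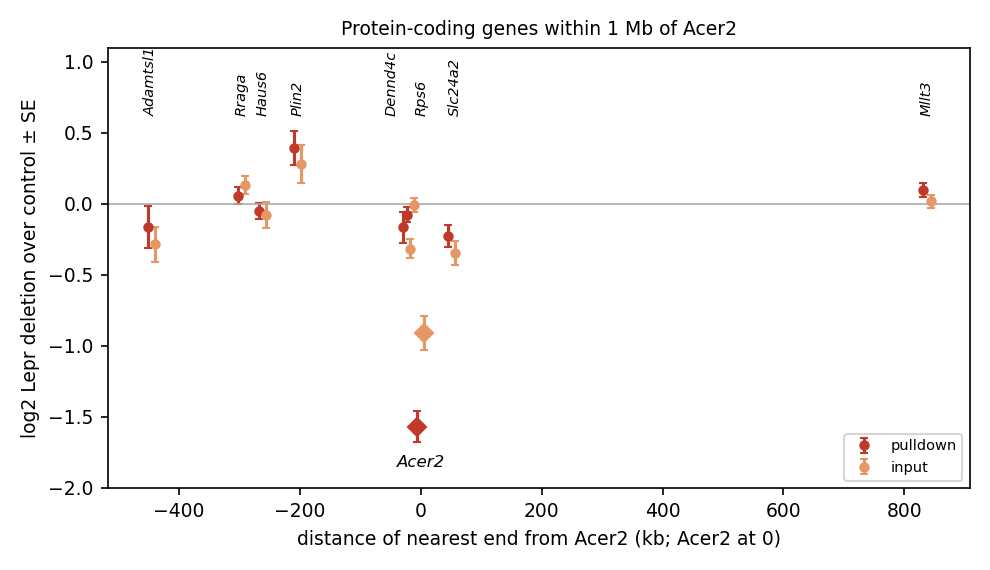
The log2 difference of Lepr deletion over control (± SE) for Acer2 (diamonds) and the 8 tested protein-coding genes within 1 Mb, against their distance from Acer2 in kb, for pulldown and input. Acer2 stands at -1.57 in pulldown and -0.91 in input, and the other genes lie between -0.34 and 0.39.

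The plot of the neighbourhood places Acer2 apart from the genes on both sides of it. Acer2 was picked for this difference and its neighbours were not, so the gap between them is a description only. Across the 16 libraries the 5 genes of 14806 compared whose log2 CPM followed Acer2 most closely were Sep15 (Pearson r = 0.916), Wdfy1 (0.915), Wnt2b (0.889), Erdr1 (0.873) and Slc25a53 (0.861). These libraries share 2 genotypes and a pulldown step, so the likeness is a description and holds the genotype difference that picked Acer2. Among the enzymes the closest was Acer3, at r = 0.646, and the farthest was Sphk1, at r = -0.568.

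The other ceramidases did not pass the test between genotypes. All 10 genes passed the filter on low counts, and of the 9 that can be tested 0 were called in pulldown, where 0.641% of 16859 tested genes were called. In input 0 of the 9 were called, where 0.231% of 17735 genes were called. In pulldown 3 of the 9 passed at an unadjusted p under 0.05, as did 19.8% of all genes, and in input 2 of the 9, as did 14.0% of all genes. DESeq2 called 0 of the 9 in either. In pulldown 8 of the 9 differences were negative, with a median of -0.13 beside -0.01 over all genes. In input 7 were negative. The groups overlapped for each of the 9 in both fractions, while 10.0% of all genes in pulldown and 6.88% in input did not overlap.

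Acer3 had 14.7, 12.0, 13.6 and 11.6 CPM in Lepr-deletion pulldown and 13.1, 15.6, 15.4 and 16.7 CPM in control pulldown. Its input values were 14.1, 12.8, 13.4 and 12.0 CPM in Lepr-deletion pools and 13.5, 17.9, 15.8 and 16.8 CPM in control pools. The groups met at control pool 1, which lay below Lepr-deletion pools 5 and 7 in pulldown and below pool 5 in input. The log2 difference was -0.21 in pulldown (SE 0.09, edgeR adjusted p = 0.238) and -0.29 in input (SE 0.09, edgeR adjusted p = 0.196), and in input the gene was called when control pool 1 alone was left out (adjusted p = 0.0375). Acer1, the third alkaline ceramidase gene, had 0 counts in every library, where 3 counts, the floor used here, would be 0.0321 to 0.0562 CPM.

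Asah2, the neutral ceramidase of the cell surface, had 29.3, 21.0, 19.8 and 19.6 CPM in Lepr-deletion pulldown and 20.0, 25.6, 28.4 and 30.1 CPM in control pulldown. Pool 5 lay far above the other Lepr-deletion pools and pool 1 below the other control pools. The difference was -0.20 in pulldown (SE 0.15, edgeR adjusted p = 0.471) and -0.20 in input (SE 0.12, edgeR adjusted p = 0.481), and leaving out pool 5 from the input gave a call (adjusted p = 0.0433). An annotated pseudogene, Gm8943, overlaps Asah2, so its counts are uncertain. Asah1, the acid ceramidase of lysosomes, averaged 22.9 ± 2.63 CPM in Lepr-deletion pulldown and 25.2 ± 3.01 CPM in control pulldown (SD, n = 4 each), a difference of -0.13 (SE 0.10, edgeR adjusted p = 0.521). In input it averaged 27.3 ± 1.74 CPM in Lepr-deletion pools and 28.9 ± 2.24 CPM in control pools (SD, n = 4 each), a difference of -0.08 (SE 0.07, edgeR adjusted p = 0.637). Frg1 overlaps Asah1.

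Sphk1, the sphingosine kinase found mostly in the cytosol, was the sole gene of the 9 with a positive difference in pulldown, and its libraries varied most. It had 1.19, 1.20, 2.32 and 0.962 CPM in Lepr-deletion pulldown and 1.14, 0.983, 0.368 and 0.165 CPM in control pulldown. In input it had 1.48, 1.91, 3.71 and 1.58 CPM in Lepr-deletion pools and 1.47, 1.52, 0.647 and 0.498 CPM in control pools. Pool 7 was highest and pools 3 and 4 were lowest in both fractions, and the genotypes overlapped. The difference was 1.11 in pulldown (SE 0.47, edgeR adjusted p = 0.224) and 1.07 in input (SE 0.38, edgeR adjusted p = 0.238), on 15 to 219 counts per library. In pulldown, pool 7 also had the highest summed CPM of astrocyte (416), oligodendrocyte (158), tanycyte and ependymal (13.3) and vascular marker genes. In input only the vascular sum was highest in pool 7. It was 5.24 to 14.6 across Lepr-deletion pulldown libraries and 2.65 to 6.30 across control pulldown libraries. The vascular input sums were 41.1 to 77.8 for Lepr-deletion pools and 38.5 to 52.4 for control pools. Cldn5, a defining gene of brain endothelium, was at 0 in control pulldown. In pulldown 1 of 6 tested vascular markers was called, where 0.641% of all genes were. It was Kdr, an endothelial receptor gene (log2 2.12, edgeR adjusted p = 0.0494), with means of 1.84 CPM in Lepr-deletion pulldown and 0.428 CPM in control pulldown. Of the 6 differences 1 was negative, with a median of 0.89. The part of these cells in the Sphk1 values was not tested.

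Sphk2, the nuclear and mitochondrial sphingosine kinase, Sgpp1, the phosphatase that returns sphingosine 1-phosphate to sphingosine, and Cers6, a synthase of ceramides with palmitoyl chains, had differences between -0.05 and -0.01 in pulldown (edgeR adjusted p 0.789 to 0.937). In input they lay between -0.03 and -0.01 (edgeR adjusted p 0.928 to 0.982). Their approximate 95% confidence intervals stayed between -0.23 and 0.20 in both fractions. Sgpl1, the lyase, averaged 4.32 ± 0.629 CPM in Lepr-deletion pulldown and 4.88 ± 0.380 CPM in control pulldown (SD, n = 4 each), a difference of -0.16 (SE 0.12, edgeR adjusted p = 0.47), and in input the difference was -0.11 (SE 0.09, edgeR adjusted p = 0.65). Cers2, the synthase of very-long-chain ceramides used in myelin, had 11.0, 10.4, 10.2 and 9.89 CPM in Lepr-deletion pulldown and 10.8, 12.3, 13.0 and 11.3 CPM in control pulldown. Only the control library of pool 1 fell inside the Lepr-deletion range. The Cers2 difference was -0.18 in pulldown (SE 0.08, edgeR adjusted p = 0.22) and 0.03 in input (SE 0.09, edgeR adjusted p = 0.911).

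**Figure D3:**
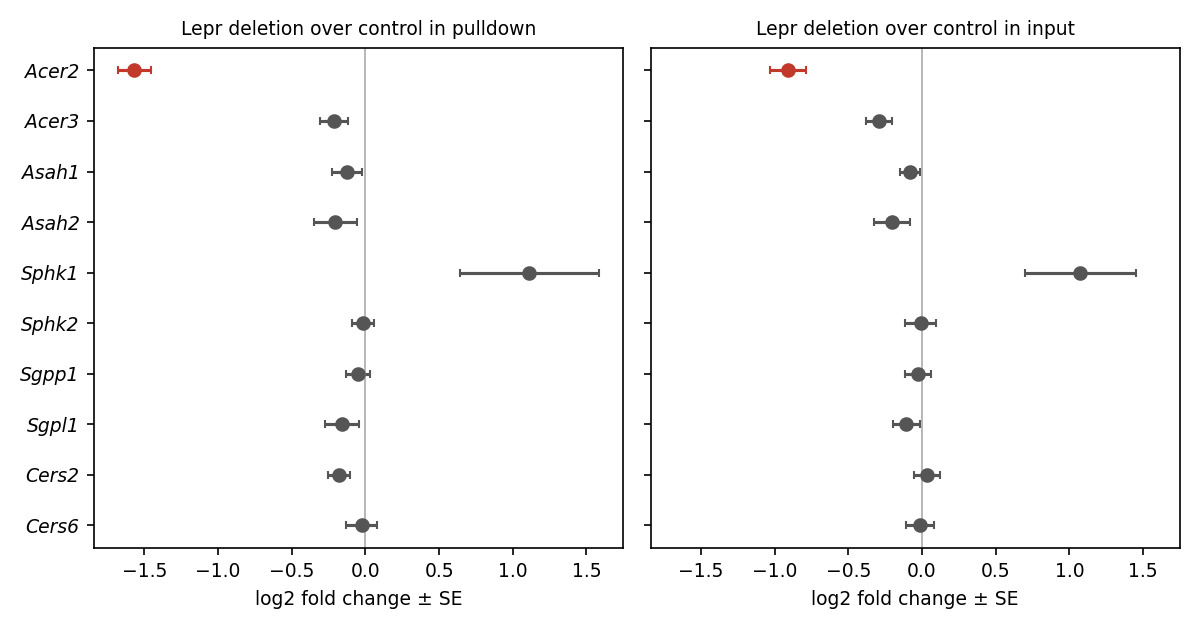
The log2 difference of Lepr deletion over control (± SE, 4 libraries each) for the 10 genes in pulldown (left) and input (right). Acer2, at -1.57 and -0.91, was picked for this difference; Sphk1, at 1.11 and 1.07, has the widest errors, and the other 8 lie between -0.29 and 0.03.

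The plot of genotype differences sets the 9 enzymes beside Acer2. Leaving out pools 1 and 5 changed the count. Then 6 of the 9 were called in pulldown, where 19.9% of all genes were called, and 3 of the 9 in input, where 11.0% were called. In pulldown these were Acer3 (-0.34, SE 0.08, edgeR adjusted p = 0.00789), Asah1 (-0.29, SE 0.06, adjusted p = 0.00568), Asah2 (-0.47, SE 0.07, adjusted p = 0.000939), Sgpp1 (-0.18, SE 0.05, adjusted p = 0.0237), Cers2 (-0.25, SE 0.07, adjusted p = 0.0309) and, in the other direction, Sphk1 (1.57, SE 0.49, adjusted p = 0.038). In input they were Acer3 (-0.40, SE 0.08, edgeR adjusted p = 0.00642), Asah2 (-0.42, SE 0.07, adjusted p = 0.00243) and Sphk1 (1.44, SE 0.39, adjusted p = 0.0281). With 3 pools per genotype left, these calls rest on libraries kept after the levels of all pools were known. In pulldown, pool 5 was the highest Lepr-deletion library and pool 1 the lowest control library for each gene called lower here. Leaving them out makes these differences more negative by construction, so the counts cannot be read as an excess over all genes.

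Per transcript length the 10 genes spanned a wide range, with Sgpp1 and then Asah1 highest in all 4 groups. Sgpp1 led with 44.5 ± 2.75 TPM in Lepr-deletion pulldown and 45.6 ± 5.61 TPM in control pulldown (SD, n = 4 each). Asah1 followed with 25.9 ± 2.23 TPM in Lepr-deletion pulldown and 28.0 ± 3.97 TPM in control pulldown, then Cers6 with 24.1 ± 1.00 TPM in Lepr-deletion pulldown and 25.0 ± 5.17 TPM in control pulldown, and the ranges of Asah1 and Cers6 overlapped in both. Cers2, Asah2 and Sphk2 formed the next group, at 12.1 to 12.8 TPM in Lepr-deletion pulldown and 11.9 to 14.2 TPM in control pulldown, with overlapping ranges between neighbours. In control pulldown Acer2 stood beside Acer3, at 8.85 ± 0.556 TPM for Acer2 and 9.78 ± 1.32 TPM for Acer3, with overlapping ranges. In Lepr-deletion pulldown Acer3 stayed at 8.92 ± 1.42 TPM, while Acer2 had 3.06 ± 0.373 TPM and overlapped Sgpl1 at 2.87 ± 0.460 TPM. In Lepr-deletion input Acer2 had the lowest mean of the 10, at 1.67 ± 0.0625 TPM, but its range overlapped that of Sphk1, at 1.31 to 3.51 TPM. In control input it had 3.02 ± 1.02 TPM, a range that overlapped Sgpl1 and lay above Sphk1.

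**Figure D4:**
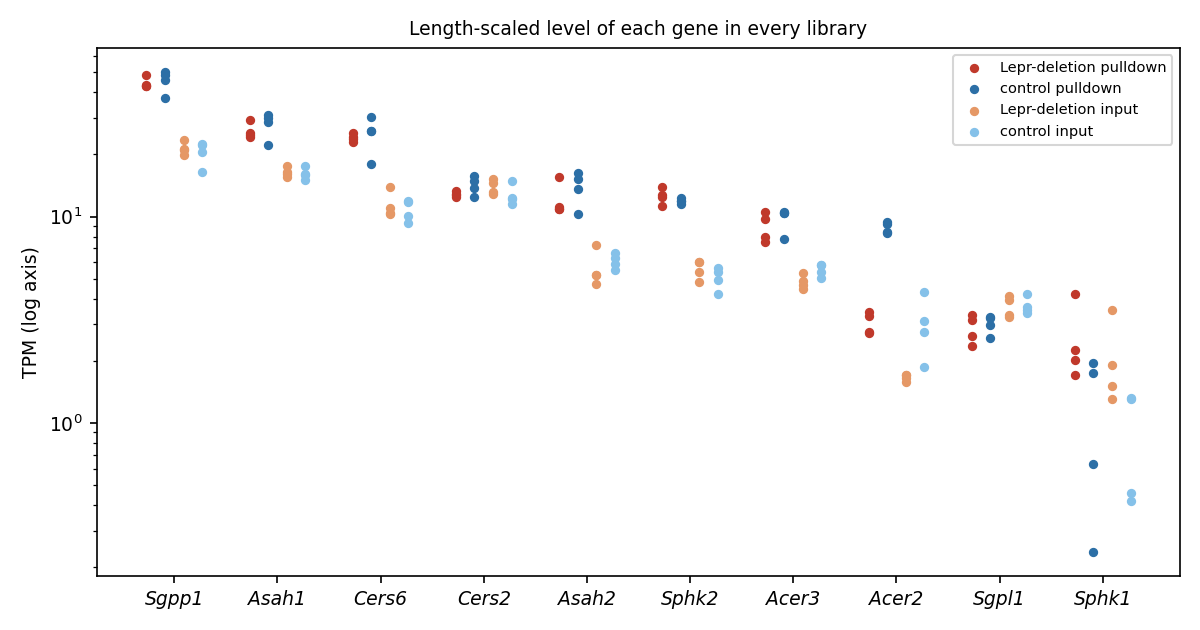
TPM of each gene in every library on a log axis, with genes ordered by level and the 4 groups side by side. Sgpp1 is highest, at 43.0 to 48.6 TPM in Lepr-deletion pulldown and 37.6 to 50.3 TPM in control pulldown, and Acer2 is the gene whose Lepr-deletion pulldown points (2.73 to 3.46 TPM) lie apart from the control pulldown points (8.37 to 9.44 TPM).

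The second question was which of these RNAs the tagged ribosomes carried relative to the whole lysate. In the plot of levels most genes had more TPM in pulldown than in input, and the scaling set how far this counted as a change. With TMM scaling, 46.8% of the genes called in Lepr-deletion pools and 46.5% of those called in control pools were higher in pulldown. With library totals these shares were 74.4% in Lepr-deletion pools and 76.2% in control pools, and the median of all genes moved up by 0.46 in Lepr-deletion pools and 0.55 in control pools on the log2 scale. On log2(TPM + 1) it moved up by 0.72 in Lepr-deletion pools and 0.77 in control pools. The values that follow are TMM-scaled.

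In Lepr-deletion pools 0 of the 10 genes were higher in pulldown, where 28.8% of all genes were called higher, and 3 were lower, where 32.8% were called lower. In control pools 2 were higher, where 30.1% of all genes were called higher, and 2 were lower, where 34.6% were called lower. Acer2 is among the 2 higher, and its call is not independent of how it was picked. These fits did not pair the input and pulldown of a pool, and the counts with the pool as a block, given below, were larger. Sgpl1, the lyase, was lower in pulldown in both genotypes. It had 4.48, 4.05, 5.12 and 3.65 CPM in Lepr-deletion pulldown and 11.0, 11.2, 9.58 and 9.16 CPM in Lepr-deletion input, and 4.34, 4.89, 5.14 and 5.14 CPM in control pulldown and 9.90, 12.1, 11.2 and 10.9 CPM in control input. Pulldown and input did not overlap in either genotype. The log2 pulldown over input of Sgpl1 was -1.25 in Lepr-deletion pools (SE 0.12, edgeR adjusted p = 6.86e-07) and -1.19 in control pools (SE 0.09, edgeR adjusted p = 3.06e-07), and it stayed below 0 and called under every alternative run.

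Cers2 was lower in pulldown as well, with 23.4, 19.5, 22.0 and 18.9 CPM in Lepr-deletion input and 18.6, 19.4, 23.9 and 19.8 CPM in control input beside the pulldown values above. The difference was -1.02 in Lepr-deletion pools (SE 0.08, edgeR adjusted p = 1.44e-07) and -0.80 in control pools (SE 0.09, edgeR adjusted p = 1.08e-05). On log2(TPM + 1) it was -0.11 in Lepr-deletion pools (limma adjusted p = 0.154) and 0.15 in control pools (limma adjusted p = 0.149), so its call rested on the count scale. Cers2 overlaps Anxa9, Setdb1 and LOC115489748, which leaves its counts uncertain. Asah1 was called lower in Lepr-deletion pools (-0.26, SE 0.08, edgeR adjusted p = 0.0116) and not in control pools (-0.21, SE 0.09, edgeR adjusted p = 0.0566). The difference between these values was -0.06 (SE 0.13, edgeR adjusted p = 0.932). With library totals Asah1 was called higher, at 0.19 in Lepr-deletion pools (adjusted p = 0.0345) and 0.33 in control pools (adjusted p = 0.0039).

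Sphk2 was called higher in control pools, at 0.21 (SE 0.09, edgeR adjusted p = 0.049), and had 0.20 in Lepr-deletion pools (SE 0.10, edgeR adjusted p = 0.0915). Its control pulldown and input libraries overlapped, and the call was lost without control pulldown pool 1, 2 or 3 or control input pool 3 or 4 (adjusted p 0.0635 to 0.129). With a minimum mean of 1 CPM the Sphk2 call was also lost (adjusted p = 0.139), while Asah1 was called lower in control pools (adjusted p = 0.0205). Sphk2 overlaps Dbp and Rpl18. Asah2, Sgpp1 and Cers6 had values of 0.15 to 0.20 in Lepr-deletion pools (edgeR adjusted p 0.0521 to 0.264) and 0.18 to 0.21 in control pools (edgeR adjusted p 0.139 to 0.2). Acer3 had -0.02 in Lepr-deletion pools (SE 0.09, edgeR adjusted p = 0.869) and -0.09 in control pools (SE 0.10, edgeR adjusted p = 0.42), and Sphk1 had -0.62 in Lepr-deletion pools (SE 0.32, edgeR adjusted p = 0.114) and -0.65 in control pools (SE 0.54, edgeR adjusted p = 0.312).

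**Figure D5:**
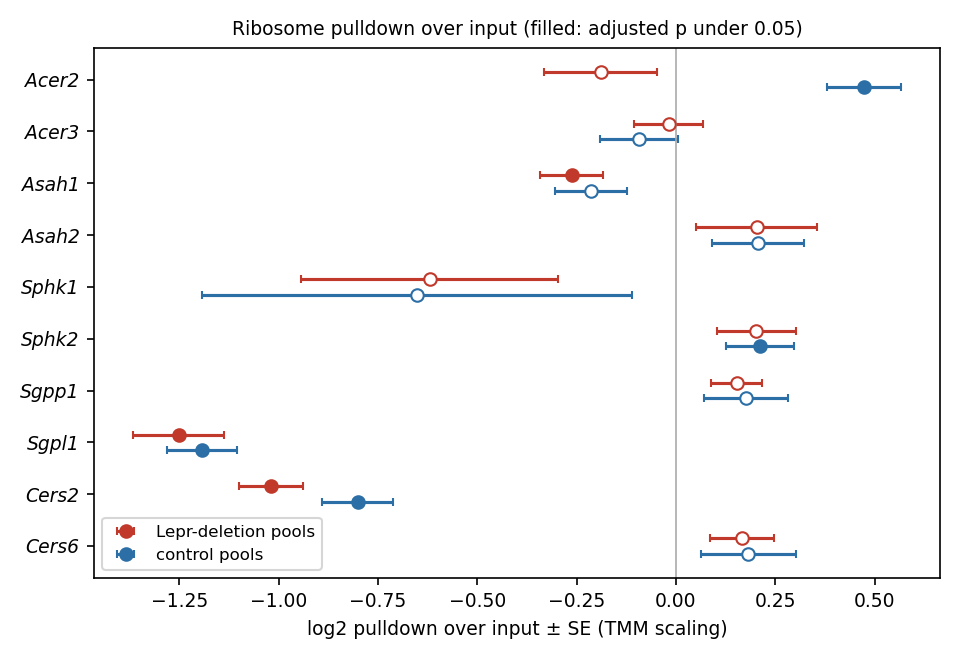
The log2 pulldown over input (± SE, 4 libraries each, TMM scaling) of the 10 genes in Lepr-deletion pools (red) and control pools (blue), with filled points where the edgeR adjusted p was under 0.05 (for Acer2 a description, since it was picked on these libraries). Sgpl1 and Cers2 lie below 0 in both, and Acer2 is the gene whose values stand on different sides of 0, at -0.19 in Lepr-deletion pools and 0.47 in control pools.

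The plot of pulldown over input shows the genes other than Acer2 at close values in both genotypes. The difference of pulldown over input between genotypes was called for 0 of the 9 genes, where 0.0108% of 18530 genes were called, and their values ran from -0.23 for Cers2 to 0.07 for Acer3. At an unadjusted p under 0.05, 0 of the 9 passed, where 8.96% of all genes did, and DESeq2 also called 0 of the 9, where it called 0.0917% of all genes. Input and pulldown of one number come from the same animals, and with the pool as a replicate block 7 of the 10 genes were called in Lepr-deletion pools, where 63.4% of all genes were called. In control pools 9 of the 10, with the picked gene Acer2 among them, were called with the block, where 69.3% of all genes were. The added calls were higher Asah2, Sgpp1 and Cers6 and lower Sphk1 in both genotypes, and lower Asah1 in control pools. Without pools 1 and 5 the count was 5 in Lepr-deletion pools, where 59.7% of all genes were called. It was 8 in control pools, again with Acer2 among them, where 64.8% were called. Without those pools 0 of the 9 differed between genotypes, where 0.467% were called.

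The pulldown held less RNA of glial marker genes than the input. The summed CPM of 8 astrocyte markers was 378 to 416 in Lepr-deletion pulldown against 2837 to 3071 in Lepr-deletion input, and 372 to 404 in control pulldown against 3131 to 3512 in control input. The sum of 8 oligodendrocyte markers was 127 to 158 in Lepr-deletion pulldown against 1045 to 1437 in Lepr-deletion input, and 121 to 141 in control pulldown against 1119 to 1448 in control input. No marker of either list was at 0. The part of these cells in the lower Sgpl1 and Cers2 values in pulldown was not tested.

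The other genes of sphingolipid metabolism, transport and receptors, were counted in 5 lists of 61 genes in all. Of 58 tested, 0 were called between genotypes in pulldown, with 17 at an unadjusted p under 0.05, where 19.8% of all genes passed, and 0 in input, with 10 at an unadjusted p under 0.05, where 14.0% passed. In pulldown 49 of the 58 differences were negative, where 52.4% of all genes were, with a median of -0.16 beside -0.01 over all genes. In input 43 were negative, where 50.7% of all genes were, with a median of -0.10. DESeq2 called 3 of the 58 in pulldown, beside its 6.35% of all genes, all lower: Plpp2, a lipid phosphate phosphatase (-0.35, DESeq2 adjusted p = 0.00631), Cers4, a ceramide synthase (-0.21, DESeq2 adjusted p = 0.0267), and St3gal5, the synthase of the ganglioside GM3 (-0.30, DESeq2 adjusted p = 0.0351), and none in input. Pulldown against input called 15 higher and 22 lower in Lepr-deletion pools, where 28.8% of all genes were higher and 32.8% lower. In control pools it also called 15 higher and 22 lower, where 30.1% of all genes were higher and 34.6% lower.

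Those called lower in pulldown included Fa2h, which hydroxylates the fatty acids of myelin lipids, with 0.769 CPM in Lepr-deletion pulldown against 22.1 CPM in Lepr-deletion input, and 0.778 CPM in control pulldown against 21.9 CPM in control input. Its log2 values were -4.84 in Lepr-deletion pools (SE 0.24) and -4.83 in control pools (SE 0.14). Ugt8a, the synthase of myelin galactosylceramide, had -3.45 (SE 0.12) in Lepr-deletion pools and -3.51 (SE 0.11) in control pools, and S1pr1, a sphingosine 1-phosphate receptor, had -4.46 (SE 0.12) in Lepr-deletion pools and -4.80 (SE 0.10) in control pools. Plpp3, a lipid phosphate phosphatase, had -3.78 (SE 0.09) in Lepr-deletion pools and -3.81 (SE 0.12) in control pools. Abca1, a lipid exporter, had -2.33 (SE 0.12) in Lepr-deletion pools and -2.28 (SE 0.14) in control pools. Smaller negative values were measured for Smpdl3a, a sphingomyelinase-like phosphodiesterase, at -1.51 (SE 0.08) in Lepr-deletion pools and -1.30 (SE 0.08) in control pools, and for Ormdl2, a regulator of the first step of ceramide synthesis, at -1.49 (SE 0.17) in Lepr-deletion pools and -1.64 (SE 0.18) in control pools. Degs2, a hydroxylase of ceramide synthesis, had -1.37 (SE 0.08) in Lepr-deletion pools and -1.32 (SE 0.13) in control pools, and Galc, the lysosomal galactosylceramidase, had -1.34 (SE 0.12) in Lepr-deletion pools and -1.16 (SE 0.09) in control pools. These 9 genes stayed below 0 in both genotypes with library totals and on both TPM scales. Galc was not called in control pools on log2(TPM + 1) (-0.15, limma adjusted p = 0.125). Smpd4, a neutral sphingomyelinase, had -1.03 (SE 0.09) in Lepr-deletion pools and -1.06 (SE 0.10) in control pools, but 0.05 in control pools on log2(TPM + 1). Sptssa was called lower, at -0.33 in Lepr-deletion pools and -0.18 in control pools, but had 0.57 and 0.79 on log2(TPM + 1). Abcc1 was called lower, at -0.63 in Lepr-deletion pools and -0.59 in control pools, but had 0.25 and 0.38 on log2(TPM + 1).

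The genes called higher in pulldown included Sptssb, a small subunit of serine palmitoyltransferase, at 0.87 (SE 0.15) in Lepr-deletion pools and 1.16 (SE 0.12) in control pools. Cptp, the ceramide 1-phosphate transfer protein, had 0.70 (SE 0.06) in Lepr-deletion pools and 0.76 (SE 0.06) in control pools. Plpp1, a further lipid phosphate phosphatase, had 0.54 (SE 0.10) in Lepr-deletion pools and 0.64 (SE 0.06) in control pools, and Plpp2 had 0.29 (SE 0.12) in Lepr-deletion pools and 0.70 (SE 0.09) in control pools. These 4 stayed above 0 under the same scalings. Of the receptors and transporters of sphingosine 1-phosphate, 0 of 9 tested were called higher and 6 lower in control pools, beside 30.1% and 34.6% of all genes.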

How the data were processed

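RNA was measured in 8 pulldown and 8 input libraries. Salmon 1.10.1, DESeq2 1.38.3 and GRCm38 are named per the submitters' processing notes. Annotation release and strand setting are not given in the sources used here, which leaves overlapping genes uncertain. The authors deposited, per gene, estimated counts, estimated counts rescaled from TPM, and TPM, and a table of log2 fold changes with adjusted p-values. Estimated counts were rounded and tested with edgeR 4.0.16 (quasi-likelihood test, TMM, filterByExpr with minimum count 10 and total 15, Benjamini-Hochberg over all genes at 0.05; R 4.3.3), on the 8 libraries of each comparison or all 16 for the difference between genotypes. The script was tested on simulated data. CPM values use TMM sizes over the 16 libraries. Standard errors and confidence intervals include the spread between pools, while the floor of 3 counts covers counting error only. The intervals take the SE times a normal quantile, which makes them approximate and narrower than the edgeR test would give. Alternatives were RLE, library totals, no filter, a mean of 1 CPM, DESeq2 1.42.0, rescaled counts, limma 3.58.1 on log2(TPM + 1) and log2(TPM + 0.1), all 16 libraries, leave-one-out, and a replicate block.

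The 10 genes and all lists were chosen with earlier results of these data known. Genes named beyond the 10 are examples from the 3 smallest p of each list, chosen with their values in view, the 5 genes most like Acer2 and its neighbours within 1 Mb; genes called by DESeq2 and the marker examples were named after their values were seen. Per the labels' extraction protocol, same-numbered input and pulldown come from the same animals; their deviations from group means correlated at 0.0254 to 0.455, above 0.1 in 6 of 8 pools. Replicates differed by more than counting noise (chi-square per degree of freedom 8.16 to 49.9 over 24 pairs).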

Additional observations from a re-analysis of the deposited data

Results flagged for a closer look

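Asah2 in Lepr-deletion pulldown was flagged because pool 5 lay far from the other pools of its group: 29.3 CPM in pool 5, against 19.6 to 21.0 CPM in pools 6 to 8, a gap of 0.85 of the whole range above the 95% critical value of Dixon's gap test for 4 samples. It was the 1 flagged of 40 groups looked at, and chance flags about 1 in 20.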

How the results depend on the processing

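No gene of the 9 was called between genotypes under the other normalizations, filters, DESeq2 or limma. Without pools 1 and 5 the counts were 6 in pulldown and 3 in input, and leaving out single libraries gave 0 to 0 in pulldown and 0 to 1 in input. Over all genes the calls between genotypes ran from 16 (rescaled counts) to 1071 (DESeq2) in pulldown and from 11 to 386 in input, against 108 and 41, and 3363 and 1957 without pools 1 and 5; leaving out single libraries gave 19 to 1262 in pulldown and 19 to 402 in input. Of the calls over all genes, 61.1% were higher in pulldown (39.5% with library totals, 70.0% on log2(TPM + 1)) and 58.5% in input (87.0% and 95.5% under the same settings). The difference of enrichment had 2 calls over all genes, from 0 (rescaled counts) to 17 (DESeq2), and 87 without pools 1 and 5. Of the 58 wider sphingolipid genes 28 in pulldown and 14 in input were called without those pools, where 19.9% and 11.0% of all genes were, and 0 to 7 in pulldown and 0 to 4 in input over single-library omissions. Pools 1 and 5 were left out after the levels of the sphingolipid enzymes were seen. The counts without them are therefore a description and cannot be read as an excess over all genes. 

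Pulldown over input called 4 of 10 in control pools and 3 in Lepr-deletion pools. Acer2 is among those called in control pools here and under every setting below. In Lepr-deletion pools it is among them with limma only. Acer2 was picked on these libraries, so its calls are not independent of how it was picked. In control pools the count was 9 with library totals, 8 with limma at either pseudocount, 7 with no filter, 9 with the replicate block and 8 without pools 1 and 5; in Lepr-deletion pools it was 8, 8, 6, 7 and 5 under the same settings. Leaving out single libraries gave 3 to 6 in control pools, 3 to 5 in Lepr-deletion pools and 0 to 0 for the difference between genotypes. The genotypes share no pool numbers, so no paired fit was possible between them, and the block changed no call of the difference.

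Signs reversed as follows. With library totals, log2(TPM + 0.1) and log2(TPM + 1), pulldown over input in control pools was 0.45, 0.81 and 0.72 for Acer3 and 0.33, 0.78 and 0.75 for Asah1, and in Lepr-deletion pools 0.27, 0.83 and 0.60 for Acer2, 0.44, 0.86 and 0.76 for Acer3 and 0.19, 0.66 and 0.63 for Asah1. On the TPM scales it was 0.18 and 0.14 for Sphk1 and 0.16 and 0.15 for Cers2 in control pools, and 0.31 and 0.21 for Sphk1 in Lepr-deletion pools. The upward shift of the median of all genes, given in the report, goes with these. Acer3 in Lepr-deletion pools was 0.0086 with no filter and -0.0761 to 0.0374 over single-library omissions. Between genotypes in input, Asah1 was 0.0185 and 0.0175 on the TPM scales, and Cers2 was -0.0645 without pools 1 and 5 and -0.0303 to 0.12 over single-library omissions; the cause was not tested.

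Groups of 4 pools limit the precision, and for Sphk1 so does a depth of 15 to 219 counts.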
